A study of Mus musculus with 6 samples.

Results

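The genes studied here move, carry, convert and sense thyroid hormone. They are the membrane transporter genes Slco1c1 and Slc16a10, the carrier gene Ttr, the deiodinase genes Dio2 and Dio3, the receptor genes Thra and Thrb, and Trhde, whose product degrades thyrotropin-releasing hormone. The 8 genes were chosen by symbol from 22180 genes that the array measures through a probe set with exactly 1 gene symbol. All 8 were found, 7 of them through 1 probe set and Dio2 through 2, of which the brighter over all 6 arrays was kept. RNA came from the retinal pigment epithelium (RPE), choroid and sclera, dissected as 1 complex, of mice aged 12 months, untreated. The 5XFAD group (3 samples) was heterozygous for transgenes that encode human amyloid precursor protein and presenilin 1 with familial Alzheimer's disease mutations, expressed under elements of the neuronal Thy1 promoter. The control group (3 samples) was wild type, non-transgenic and from the same litters. Whether the samples are separate animals is not stated in the labels, and the spread given here may be partly technical. The genes were put together because Slco1c1 and Trhde were already known to be low in the 5XFAD arrays of this same comparison. The differences of all 8 are therefore described with their errors, and their place in the fit over all genes, given once, is no independent evidence.

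Thyroid hormone reaches the eye mostly as thyroxine (T4), bound in blood to carrier proteins, and crosses cell membranes only through transporters. Inside cells the type 2 deiodinase converts T4 to the active hormone T3, and the type 3 deiodinase inactivates both. T3 binds the nuclear receptors encoded by Thra and Thrb, which sit on DNA and switch target genes between repression and activation. In the eye this pathway is best known for setting which opsin a developing cone makes. The RPE lies between the choroidal blood supply and the photoreceptors, so that hormone from the choroid has to pass it.

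The promoter sequences of the 2 genes with the largest differences are shown, since both were low in the same arrays, with that of Dio2, which holds known motifs. They are the 250 bases before the annotated start, from RefSeq on GRCm38.p6, 5′ to 3′ on the gene's strand. Capitals mark matches on either strand to any of 6 searched motifs: AGGTCA (the core of nuclear receptor sites), a direct repeat of AGGTCA with 4 bases between (the arrangement that thyroid hormone receptors bind), TGACGTCA (the cyclic AMP response element), TATAAA (the TATA box), TAATCC (bound by OTX proteins) and CACGTG (an E-box).
Slco1c1 (chr6:141524104-141524353, + strand): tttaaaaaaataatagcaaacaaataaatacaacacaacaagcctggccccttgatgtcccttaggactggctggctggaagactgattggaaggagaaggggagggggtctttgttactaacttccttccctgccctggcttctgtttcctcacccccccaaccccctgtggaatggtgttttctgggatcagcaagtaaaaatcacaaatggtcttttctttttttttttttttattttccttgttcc
Trhde (chr10:114802303-114802552, - strand): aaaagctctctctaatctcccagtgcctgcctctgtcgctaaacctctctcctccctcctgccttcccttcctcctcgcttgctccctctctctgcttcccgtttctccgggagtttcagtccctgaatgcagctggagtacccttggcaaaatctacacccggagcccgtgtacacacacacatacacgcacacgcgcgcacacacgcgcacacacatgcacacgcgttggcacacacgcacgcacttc
Dio2 (chr12:90739039-90739288, - strand): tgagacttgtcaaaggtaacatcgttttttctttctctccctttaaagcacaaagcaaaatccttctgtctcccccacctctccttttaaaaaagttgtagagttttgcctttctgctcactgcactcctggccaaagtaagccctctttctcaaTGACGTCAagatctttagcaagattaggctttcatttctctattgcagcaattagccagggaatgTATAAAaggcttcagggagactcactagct
The windows of Slco1c1 and Trhde hold none of the 6 motifs. The Dio2 window holds TGACGTCA beginning 95 bases before the start, present in 1.55% of 32851 mouse promoter windows of the same length, and TATAAA beginning 30 bases before it, present in 12.4%. RefSeq entries were found for 6 of the 8 genes, in 7 windows, as Thrb has 2 starts. The direct repeat was in none of the 7 and in 0.0152% of all windows. AGGTCA, in 14% of all windows, was in the first Thrb window alone, which also held TAATCC (6.25% of all windows). CACGTG, in 6.02% of all windows, was in the second Thrb window, which also held TATAAA, as did that of Dio3. The GC content ran from 41.6% for Dio2 to 71.6% for the first Thrb window, with 42.8% for Slco1c1 and 58% for Trhde. A match is a string of letters and not a shown binding site, and its lack in these windows says nothing of sites elsewhere.

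The values are log2 intensities, so that a difference of 1 is a doubling of the linear signal, and background light makes the differences of dim genes too small. Median log2 intensity per array ran from 5.59 to 5.71, and correlations between arrays over all probe sets from 0.981 to 0.990, with 0 pairs of identical arrays. The tissue label was checked with RPE markers: 17 of 18 were measured, their median brightness lay at percentile 98.5 of all probe sets, and Rgr, Rpe65 and Lrat were the brightest. Percentiles place a probe set's brightness on the array and do not compare transcript amounts between genes.

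Slco1c1 encodes OATP1C1, a transporter of T4 known from the blood-brain barrier. Its log2 intensity was 9.29, 9.03 and 9.40 in 5XFAD replicates 1, 2 and 3, and 9.80, 10.33 and 10.37 in wild type replicates 1, 2 and 3. The groups did not overlap: every 5XFAD array was lower, with a gap of 0.40 between the nearest arrays, and wild type replicate 1 was the lowest of its group. The group means were 9.24 ± 0.20 and 10.17 ± 0.31 (mean ± SD of 3 arrays, in log2 intensity, here and below). The log2 difference, 5XFAD minus wild type, was -0.92 ± 0.17 (± SE), which puts the 5XFAD signal at 52.7% of the wild-type signal. Only 6 of 22180 genes had a lower difference. In whole tissue, fewer cells of a type and less RNA per cell cannot be told apart. The probe set was bright, at percentile 98.5 in wild type and 96.3 in 5XFAD.

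Slc16a10 encodes MCT10, which carries T3 and aromatic amino acids. Its log2 intensity was 6.22, 6.29 and 6.03 in the 5XFAD replicates and 5.77, 5.94 and 6.15 in the wild-type replicates, in the same order. The groups overlapped through wild type replicate 3. The log2 difference was 0.22 ± 0.13 (SE), opposite in sign to that of Slco1c1 and smaller than the range within either group (0.25 and 0.38).

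Ttr encodes transthyretin, which carries T4 and, bound to retinol-binding protein, retinol, and is made in the RPE and ciliary epithelium as well as the liver. Its log2 intensity was 13.32, 13.31 and 13.41 in the 5XFAD replicates and 13.59, 13.57 and 13.62 in the wild-type replicates. The groups did not overlap, with a gap of 0.17 and replicate SDs of 0.05 and 0.02, among the smallest on the array (pooled SD at percentile 1.38 of all genes). The log2 difference was -0.25 ± 0.09 (SE), or 84.3% of the wild-type signal. Only 7 of 33793 probe sets were brighter than Ttr, and the brightest value on any array was 13.77, so the signal lay close to the top of the scale, where differences can be compressed.

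Dio2, the activating deiodinase, gave log2 intensities of 5.65, 5.31 and 5.47 in the 5XFAD replicates and 5.32, 5.14 and 5.46 in the wild-type replicates. The groups overlapped, and the log2 difference of 0.17 ± 0.13 (SE) was about the size of the replicate SDs (0.17 and 0.16). The second Dio2 probe set, dimmer at percentile 17.9, differed the other way, by -0.08 ± 0.15 (SE). Dio3, the inactivating deiodinase, gave 4.60, 4.43 and 4.46 in the 5XFAD replicates and 4.08, 4.68 and 4.67 in the wild-type replicates. Here 1 array, wild type replicate 1, stood below the other 5, which lay within 4.43 to 4.68. The log2 difference was 0.02 ± 0.16 (SE), and it was -0.18 without wild type replicate 1. Both deiodinases were dim, at percentiles 43.0 and 27.4 in wild type, so differences of the size seen for Slco1c1 could be understated there.

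Trhde encodes the membrane peptidase that inactivates thyrotropin-releasing hormone, the hypothalamic peptide that starts the thyroid axis. Its log2 intensity was 7.24, 7.04 and 7.37 in the 5XFAD replicates and 7.88, 8.09 and 8.17 in the wild-type replicates. The 5XFAD arrays were again the 3 lowest, and the gap of 0.51 between the groups was larger than the range within either group (0.34 in 5XFAD and 0.29 in wild type). The means were 7.22 ± 0.17 and 8.05 ± 0.15, and the log2 difference was -0.83 ± 0.12 (SE), or 56.3% of the wild-type signal. Its brightness percentile was 88.2 in wild type and 76.8 in 5XFAD.

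Thra encodes the receptor TRα, the main T3 receptor of many tissues. Its log2 intensity was 7.33, 7.41 and 7.37 in the 5XFAD replicates and 7.20, 7.10 and 7.15 in the wild-type replicates. The 5XFAD arrays lay above the wild-type arrays, with a gap of 0.12, and the log2 difference was 0.22 ± 0.09 (SE), or 116% of the wild-type signal. Thrb encodes TRβ, the receptor that mouse cones need to make the medium-wave opsin, and gave 7.22, 7.43 and 7.60 in the 5XFAD replicates and 7.66, 7.46 and 7.58 in the wild-type replicates. Those groups overlapped, and the log2 difference of -0.14 ± 0.12 (SE) lay within the replicate spread. Each receptor was read by 1 probe set, which gives a single value for all its transcript forms.

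**Figure D1:**
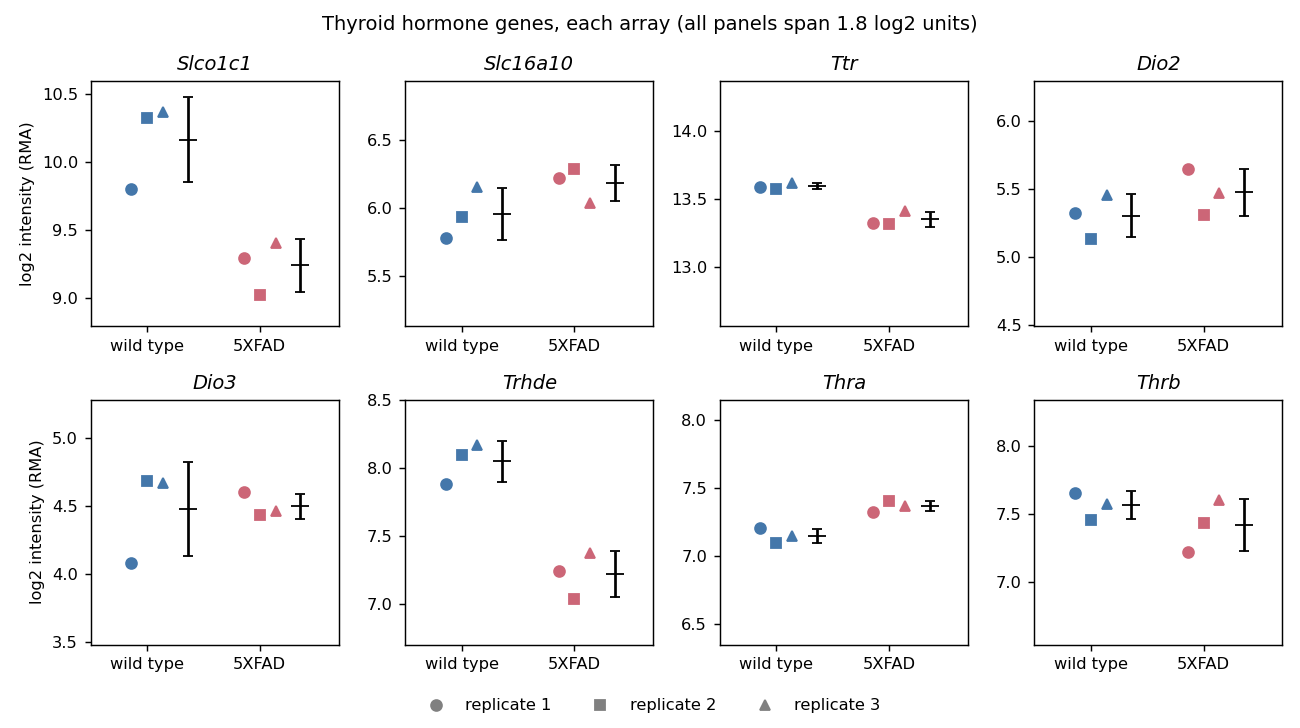
Log2 intensity (vertical axis) of the 8 genes in each array, wild type in blue and 5XFAD in red, with marker shapes for the replicate number and black bars for the mean ± SD of 3 arrays. Slco1c1, Trhde and Ttr lie lower and Thra higher in 5XFAD without overlap, while the other 4 genes overlap.

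Of the 8 genes, 4 had a positive and 4 a negative log2 difference, with a median of -0.06, beside a median of -0.01 over all 22180 genes. In 4 of the 8 the groups did not overlap, where 11.3% of all genes had groups apart. Of these, 3 were lower in 5XFAD (6.62% of all genes) and 1 was higher (4.72%). With limma, 0 of the 8 passed a Benjamini-Hochberg adjusted p of 0.05, a threshold that 5 of 22180 genes (0.0225%) passed, and 4 of the 8 had an unadjusted p under 0.05, where 6.28% of all genes did. These were the same 4, of which 3 were lower (3.39% of all genes). The lowest adjusted p among the 8 was 0.11, for Trhde. As this contrast guided the choice of genes, these counts and that p are given as a description. The count of 5 genes was 19 without wild type replicate 2 and 3 without wild type replicate 3.

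Slco1c1 and Trhde followed each other between arrays also within the groups. After each group's mean was taken off, their values had a Pearson correlation of 0.94 over the 6 arrays, which share their RNA sample and processing. In both genes 5XFAD replicate 2 was the lowest array, wild type replicate 1 the lowest of its group and wild type replicate 3 the highest array. The same correlation was 0.48 between Slco1c1 and Ttr, 0.71 between Trhde and Ttr, -0.77 between Slco1c1 and Thra, and 0.33 between the transporters Slco1c1 and Slc16a10. It was 0.87 between Slco1c1 and Dio3 and -0.83 between Dio3 and Thra. With the mean of the 17 RPE markers described below it was 0.83 for Slco1c1 and 0.81 for Trhde. Among 17277 named genes, those most like Slco1c1 over the 6 arrays, group difference included, were Cltb (Pearson r = 0.993), Cdr2 (0.993) and Gdf11 (0.992). Those most like Trhde were Rdh5, a retinol dehydrogenase of the RPE (0.997), Pon1 (0.993) and Cdr2 (0.991). Their log2 differences ran from -0.34 for Cltb to -0.68 for Cdr2, smaller than those of Slco1c1 and Trhde. Such values are a description: 88 genes reached a correlation over 0.95 with Slco1c1 and 85 with Trhde.

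RPE markers were lower in the same 5XFAD arrays. Of the 17 measured, 15 had a negative log2 difference, 12 were lower and 1 higher at an unadjusted limma p under 0.05, and 0 passed the adjusted threshold. Over all genes 52.8% of differences were negative, and 3.39% were lower and 6.28% lower or higher at that p. The mean of the 17 markers per array ran from 9.77 to 9.92 in 5XFAD and from 10.08 to 10.25 in wild type, a difference of -0.33. The median of their differences was lower, at -0.45. The mean includes the 2 markers with positive differences, Cldn19 (0.66) and Best1 (0.26), named after their values were seen. Each of Slco1c1 and Trhde had a more negative difference than all 17 markers, whereas 12 markers had a more negative one than Ttr. When the RPE marker mean of each array was subtracted, Slco1c1 was at -0.51, -0.74 and -0.51 in the 5XFAD replicates and at -0.27, 0.08 and 0.21 in the wild-type replicates. The 5XFAD arrays thus stayed below the wild-type arrays, and the difference that remained was -0.59, with -0.50 for Trhde, also without overlap. Both genes were chosen because they were low in this contrast. Their place below the markers and the differences that remained are therefore a description only. For Ttr the remaining difference was 0.08 and the groups overlapped, as they did for Thrb at 0.19. For Thra the subtraction gave a difference of 0.55, also without overlap. Slc16a10 (0.56), Dio2 (0.50) and Dio3 (0.35) overlapped before the subtraction and did not after it. The mean taken off was itself lower in 5XFAD, so a gene that did not follow it comes out higher.

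**Figure D2:**
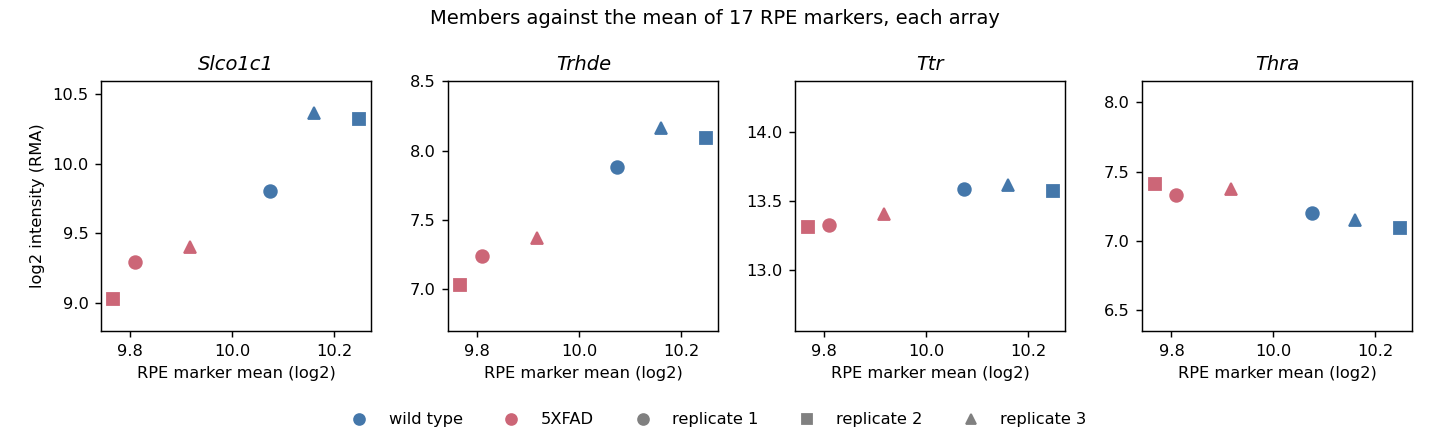
Log2 intensity of Slco1c1, Trhde, Ttr and Thra (vertical axes) against the mean log2 intensity of 17 RPE markers in the same array (horizontal axis), wild type in blue and 5XFAD in red. The 5XFAD arrays lie at marker means of 9.77 to 9.92 and the wild-type arrays at 10.08 to 10.25, and Slco1c1 and Trhde are low where the marker mean is low.

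Lists for other cell types were read in the same arrays. The surface epithelium list (12 of 13 measured) had a mean of 6.48 to 7.12 in 5XFAD and 5.70 to 5.76 in wild type, and the ciliary epithelium list (6 of 7 measured) 7.96 to 8.12 against 6.85 to 7.72. Both were higher in 5XFAD with no overlap. In the surface epithelium list 4 keratin genes (Krt4, Krt6a, Krt13 and Krt15) passed limma's adjusted threshold as higher, and these are 4 of the 5 genes that passed over the whole array. That list did not rise as a whole, with 9 positive and 3 negative log2 differences. The negative ones were those of its brightest genes, Perp (-0.01), Aldh3a1 (-0.07) and Dsp (-0.19), all with overlapping groups. The skeletal muscle list (14 of 14) ran from 6.35 to 7.70 against 5.56 to 7.18, and the list for Müller glia and astrocytes (9 of 9) from 7.14 to 7.61 against 6.93 to 7.23, both with overlap. The list for endothelium with a blood-tissue barrier, a known site of Slco1c1, had a mean of 8.02 to 8.17 against 8.10 to 8.20 (9 of 9 measured). Its members differed both ways, 6 positive and 3 negative, with a median log2 difference of 0.01. The 3 with the smallest limma p were Mfsd2a, Slco1a4 and Abcb1a, each with groups apart. Mfsd2a, a lipid transporter gene of that barrier, was at 7.16 ± 0.07 in 5XFAD against 7.74 ± 0.12 (log2 difference -0.57 ± 0.10, SE). Slco1a4 was also lower, whereas Abcb1a, an efflux pump gene, differed by 0.23 ± 0.11. None of these 3 passed the adjusted threshold, and they were named after their values were seen. The list for choroidal endothelium (9 of 9 measured) ran from 8.75 to 9.15 against 9.01 to 9.06, with overlap. Its median log2 difference was -0.05. Rod markers (9 of 11) ran from 5.78 to 6.85 against 5.89 to 6.94 and cone markers (9 of 9) from 4.84 to 5.10 against 5.05 to 5.17, with overlap in both. Thyroid gland markers (5 of 6) ran from 6.36 to 6.49 against 6.65 to 6.72, all of them also held by the pathway lists, while the gland's defining gene Tg lay at percentile 43.0. The part of these shifts in the differences of the 8 genes was not tested, beyond the subtraction of the RPE mean and the adjustments for the muscle and rod list means given next. Adjusted for the muscle list mean, the log2 difference was 0.10 for Slc16a10, 0.05 for Dio2, -0.12 for Dio3 and -0.06 for Thrb. With the same adjustment it was -1.03 for Slco1c1, -0.88 for Trhde, -0.24 for Ttr and 0.24 for Thra. Adjusted for the rod list mean instead, it was -0.96 for Slco1c1, -0.85 for Trhde, -0.25 for Ttr and 0.22 for Thra. The rod adjustment gave 0.24 for Slc16a10, 0.20 for Dio2, -0.01 for Dio3 and -0.16 for Thrb.

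**Figure D3:**
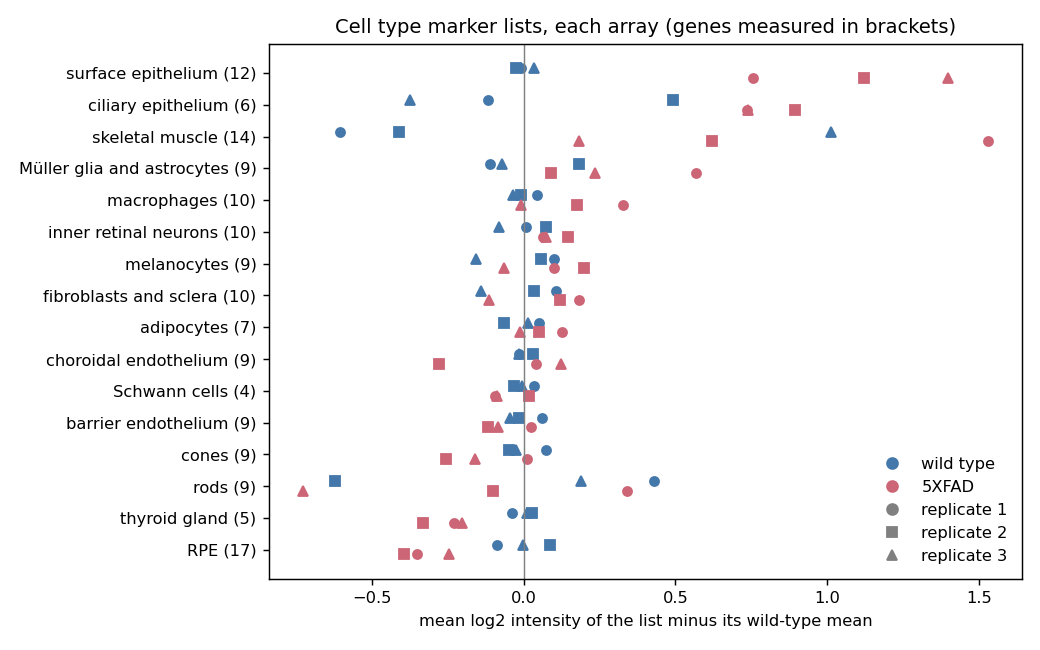
Mean log2 intensity of each cell type marker list in each array, relative to the list's wild-type mean (horizontal axis), wild type in blue and 5XFAD in red, with the number of genes measured in brackets. The RPE list is low and the surface and ciliary epithelium lists are high in all 3 5XFAD arrays.

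The rest of the pathway was tested through 7 lists of other genes, composed with earlier results of these data known. Of 96 genes 89 were measured. With limma, 0 passed the adjusted threshold (lowest Benjamini-Hochberg adjusted p = 0.13, for Itgav), beside 0.0225% of all genes. At an unadjusted p under 0.05 there were 11 (12.4%), 10 lower and 1 higher in 5XFAD, beside 6.28% of all genes. Their median log2 difference was -0.05, with 58 negative and 31 positive, and the groups were apart in 12 (13.5%), beside 11.3% of all genes. None of the differences below passed, and they are given as values.

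In the list of other transporters (11 of 12 measured), Slco1a4, an organic anion transporter related to Slco1c1, was at 9.40, 8.90 and 9.33 in the 5XFAD replicates and 9.69, 9.60 and 9.73 in the wild-type replicates. Its groups were apart, and the log2 difference was -0.46 ± 0.14 (SE; limma, Benjamini-Hochberg adjusted p = 0.59), or -0.31 without 5XFAD replicate 2. Slco1b2, a mainly hepatic relative, was dim (percentile 29.8) with a difference of -0.51 ± 0.20 and overlapping groups. Slc7a8, the light subunit of an amino acid exchanger, differed by 0.60 ± 0.26, with wild-type values from 9.04 to 10.25 that overlapped the 5XFAD ones. That difference was 0.31 without wild type replicate 3 and 0.91 without wild type replicate 2. The list's median was 0.01.

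In the list of the thyroid axis (14 of 15 measured, median -0.04), Tshr, the receptor of thyroid-stimulating hormone, was at 9.90, 9.62 and 10.03 in the 5XFAD replicates and 10.38, 10.47 and 10.41 in the wild-type replicates. The 5XFAD arrays lay below the wild-type arrays, by -0.57 ± 0.12 (SE; limma, Benjamini-Hochberg adjusted p = 0.35), in a bright probe set (percentile 98.4). Cpe, a carboxypeptidase of prohormone processing, differed by -0.28 ± 0.10 and Trhr2, a receptor of thyrotropin-releasing hormone, by -0.27 ± 0.13, both with groups apart. Wild type replicate 3 was the highest Trhr2 array, and without it that difference was -0.13. The hormone gene Trh itself was dim, at percentile 35.4, with a difference of -0.20 (-0.04 without wild type replicate 1 and -0.35 without wild type replicate 2) and overlapping groups.

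Among genes known to respond to T3 (21 of 21 measured, median -0.05), 8 were positive and 13 negative. The list does not separate genes that T3 raises from genes that it lowers, so these signs and the median do not measure a T3 response. Its largest difference, 0.96 ± 0.66 (SE) for Atp2a1, named after its values were seen, had overlapping groups. Atp2a1 is also in the skeletal muscle list. In the T3 list 1 gene was lower at an unadjusted limma p under 0.05. That gene was Me1, the malic enzyme of NADPH supply, at 9.21, 9.07 and 8.95 in the 5XFAD replicates and 9.53, 9.68 and 9.54 in the wild-type replicates. Its groups were apart by a log2 difference of -0.51 ± 0.11 (SE; limma, Benjamini-Hochberg adjusted p = 0.34). The short-wave opsin gene Opn1sw differed by -0.38 ± 0.19 and Camk4, a neuronal kinase, by -0.28 ± 0.17, both with overlapping groups, and a second Camk4 probe set by 0.00. Without wild type replicate 2 the Opn1sw difference was -0.58, and without 5XFAD replicate 3 that of Camk4 was -0.09. The classical targets Klf9 and Hr, chosen by role after the values were seen, differed by -0.09 ± 0.11 and -0.06 ± 0.10, within the replicate spread, and that of Hr was 0.01 without wild type replicate 3.

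In the list of receptor partners (16 of 18 measured) 13 of 16 differences were negative, with a median of -0.08. Itgav, the integrin chain of a T4 binding site at the cell surface, was at 10.01, 9.82 and 9.91 in the 5XFAD replicates and 10.48, 10.81 and 10.69 in the wild-type replicates, a difference of -0.75 ± 0.12 (SE) without overlap. A second, dim Itgav probe set differed by 0.00. The other integrin gene of the list, Itgb3, named after its values were seen, differed by -0.02 ± 0.09 with overlapping groups. Ncoa1, a coactivator of nuclear receptors, differed by -0.38 ± 0.13 with groups apart, and Tbl1xr1, part of the corepressor complex, by -0.15 ± 0.12 (-0.07 without wild type replicate 2 and -0.25 without wild type replicate 3).

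Of the 11 genes for deiodination, conjugation and selenoprotein synthesis, 0 were under an unadjusted limma p of 0.05. The smallest p in that list belonged to Pstk (0.21 ± 0.12), Sephs2 (-0.25 ± 0.16) and Sepsecs (-0.17 ± 0.11), enzymes that build the selenocysteine on which deiodinases depend (log2 difference ± SE). Those differences were 0.14 without wild type replicate 1, -0.08 without 5XFAD replicate 3 and -0.09 without 5XFAD replicate 2, in that order. Dio1, the deiodinase of liver and kidney, named for its role after the values were seen, was at 5.51 to 5.56 in 5XFAD and 5.48 to 5.61 in wild type. Among binding proteins (5 of 6 measured) the smallest p belonged to P4hb (0.12 ± 0.10), to albumin (Alb, -0.86 ± 0.79, with values from 5.80 to 9.65 in single arrays and a difference from -1.58 to -0.09 with 1 array left out) and to Crym, a T3-binding crystallin (-0.10 ± 0.10). In the thyroid gland list (11 of 13 measured, 9 negative) the smallest p belonged to the anion exchanger gene Slc26a7 (-0.48 ± 0.11), which is also an RPE marker, and to the transcription factor genes Foxe1 (-0.31 ± 0.10) and Pax8 (-0.29 ± 0.11), all with groups apart.

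**Figure D4:**
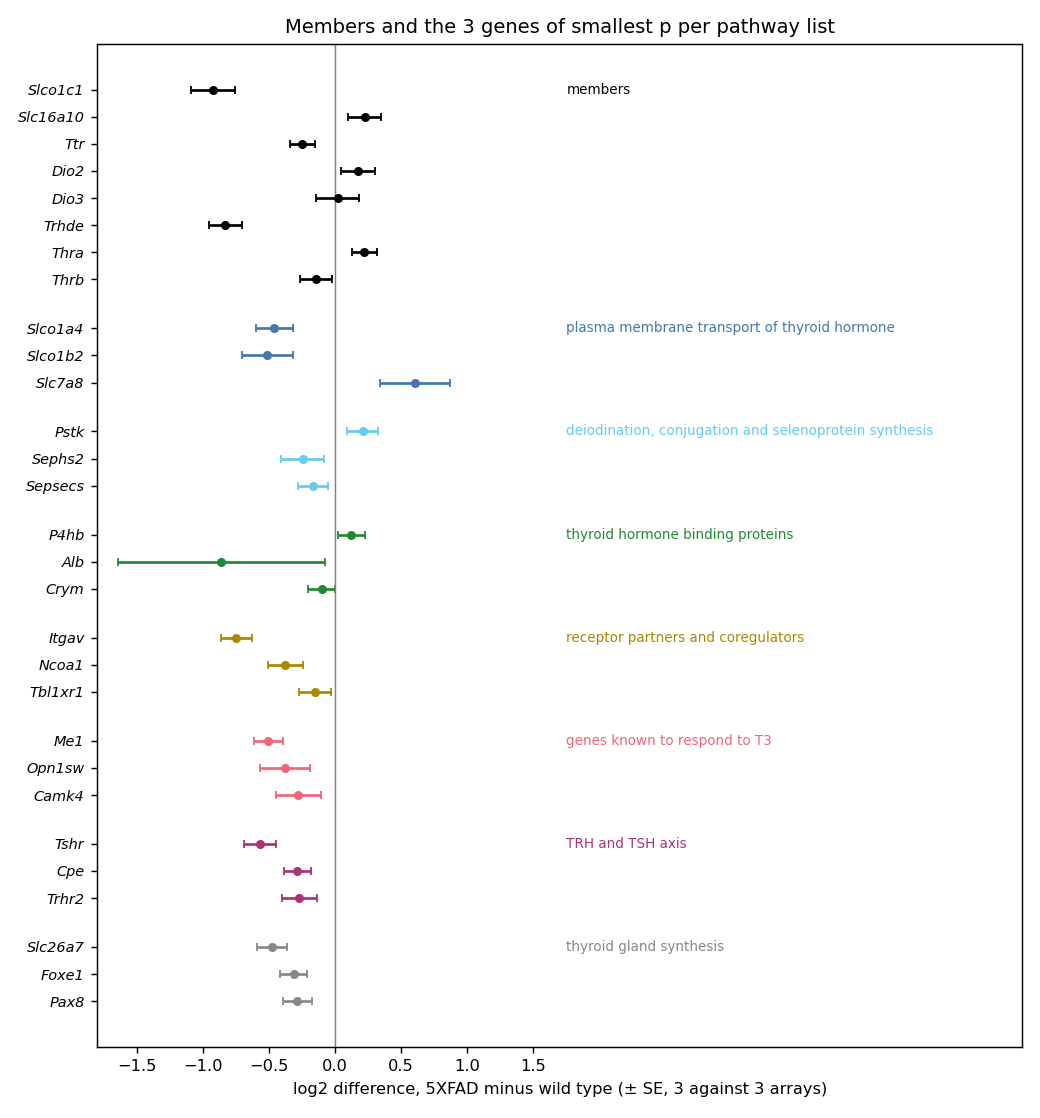
Log2 difference, 5XFAD minus wild type (horizontal axis, points, bars ± SE), of the 8 genes in black and of the 3 genes of smallest unadjusted p in each of the 7 pathway lists in colour. Slco1c1 at -0.92 and Trhde at -0.83 lie furthest below 0 apart from albumin at -0.86, whose SE is 0.79.

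The genes nearest to the 8 on the chromosome, 2 measured protein-coding genes on each side, gave 32 neighbours, a rule set after the data were seen. With limma, 0 of the 32 passed the adjusted threshold and 5 were under an unadjusted p of 0.05, namely Slco1b2, Tshr, Nr1d1 and, beside Ttr, the desmoglein gene Dsg3 (0.86 ± 0.22) and Trappc8 (-0.26 ± 0.10, log2 difference ± SE). Over all genes 6.28% were under that p and 0.0225% passed the adjusted threshold. Slco1c1 has Slco1b2 on one side and Pde3a, a phosphodiesterase gene (0.19 ± 0.10), on the other. The nearest neighbours of Trhde, Atxn7l3b (-0.11 ± 0.10) and Tph2 (-0.12 ± 0.10), differed by far less than Trhde. Next to Dio3, in the imprinted domain, Dlk1 differed by -0.10 ± 0.10, and Tshr is the second gene from Dio2. Thra overlaps Nr1d1, the clock repressor REV-ERBα, which lies on the opposite strand. Nr1d1 was at 10.03, 9.91 and 9.69 in the 5XFAD replicates and 9.71, 9.23 and 9.07 in the wild-type replicates, a log2 difference of 0.54 ± 0.17 (SE) with overlap through wild type replicate 1 (limma, Benjamini-Hochberg adjusted p = 0.63). Whether the probes of Thra read any Nr1d1 transcript was not tested.

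The direction of 7 of the 8 genes was the same under every alternative in which the gene was kept. Slco1c1 ran from -1.11 without wild type replicate 1 to -0.82 without 5XFAD replicate 2, and Trhde from -0.91 to -0.74 with the same arrays left out. Ttr ran from -0.28 to -0.23 and Thra from 0.19 to 0.25. Slc16a10 ran from 0.10 to 0.32, Dio2 from 0.05 to 0.26 and Thrb from -0.24 to -0.05. Dio3 changed sign in 4 of 14 alternatives, between -0.18 and 0.14.

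**Figure D5:**
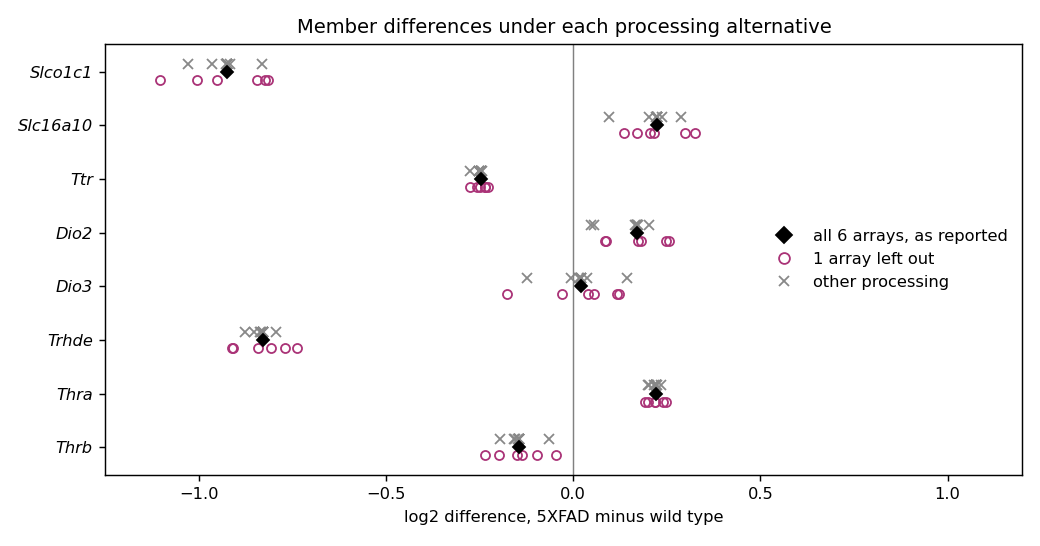
Log2 difference, 5XFAD minus wild type (horizontal axis), of each gene with all 6 arrays (black diamonds), with 1 array left out (open circles) and under other processing (crosses). Slco1c1 stays between -1.11 and -0.82 and Trhde between -0.91 and -0.74, while Dio3 falls on both sides of 0.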

How the data were processed

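The deposited table gives normalized log2 intensity for each probe set of an Affymetrix array. The authors used Expression Console 1.1 with RMA, which corrects background, quantile-normalizes and summarises probes, according to the submitters' processing notes. No source used here states filters, a build or pooled animals. Each of the 6 samples has 1 array, and this number limits the precision. Groups and replicate numbers came from the titles. Probe sets (33793) were named through the platform annotation: 23521 had 1 symbol, 1814 several and 8458 none. For the 1082 genes with over 1 probe set the brightest over all arrays was kept, giving 22180 genes.

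The comparison used lmFit and eBayes of limma 3.58.1 (R 4.3.3), two-sided and without covariates, and p-values were adjusted over all genes by Benjamini-Hochberg (threshold 0.05). The steps were tested on simulated data. The members and lists were chosen with earlier results of these data known. Genes named are the 8 members, the 3 of smallest p in each list and up to 3 markers per list. Named too are the 3 of highest correlation with Slco1c1 and Trhde (predicted genes, receptors of smell and taste and small RNAs left out). Others are surface epithelium markers, named for passing the adjusted threshold or for a negative difference, and genes said to be chosen later. Trh, Tg and the neighbours were named after their values were seen.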

Additional observations from a re-analysis of the deposited data

How the results depend on the processing

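Under all 17 alternatives 0 pathway genes passed limma's adjusted threshold. All 125 recomputed differences of the 8 genes moved by less than 1 replicate SD, and 4, all of Dio3, changed sign. The count of all genes past the threshold (5) was 8 without the dimmest 30% of genes, with array weights and with the rod list as a covariate, and 9 with arrays centred on their medians and with a trended and robust prior. With 1 array left out it ran from 3 to 19. The count of pathway genes at an unadjusted p under 0.05 (11 of 89) was 7 of 54 without the dimmest 50%, beside 7.36% of all genes kept. It ran from 8 to 13 of 89 with 1 array left out, beside 5.17% to 8.5% of all genes. The median of the members left was -0.14 without the dimmest 30% (7 genes) and -0.20 without the dimmest 50% (6 genes), where the dim members are not in the median, and ran from -0.14 to -0.01 with 1 array left out. The members with groups apart were then 4 to 6. With fewer arrays groups lie apart more easily, and the share of all genes was not computed there. That count is therefore not comparable with the 4 found in all 6 arrays. The labels do not state that the replicate numbers pair the samples. Deviations of same-numbered samples correlated at -0.06, -0.05 and 0.13, and 2 of 6 samples correlated best with their own number. With 3 arrays per group these values cannot settle whether the samples are paired. With the replicate block 6 genes passed over all genes, 0 of the pathway, and 15 of 89 pathway genes were under an unadjusted p of 0.05, beside 6.74% of all genes. The cause of these shifts was not tested. Dim probe sets, those of Dio2 and Dio3 among them, limit what can be seen.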
